A study of Mus musculus with 12 samples.

Results

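The carbonic anhydrases described here are 9 mouse genes, Car2, Car3, Car4, Car5b, Car8, Car9, Car12, Car13 and Car14, picked by their gene symbols out of 54532 genes in a table of read counts from 3T3-L1 cells. 3T3-L1 is an established mouse line of fibroblast-like preadipocytes that can be turned into fat cells in culture. The choice of symbols set no measured threshold, but it was made with the counts of all 4 groups in view, so the adjusted p-values below describe differences against the spread between libraries and are not independent evidence. The table holds 16 genes with a Car symbol, and the remaining 7 (Car1, Car5a, Car6, Car7, Car10, Car11 and Car15) are given for context. Of the 9 genes, 5 had enough counts for a test (Car2, Car3, Car5b, Car9 and Car13), 3 were counted too rarely (Car4, Car12 and Car14), and Car8 had no count in any library.

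The study sequenced RNA from wild-type cells of this line on day 6 in 4 groups of 3 libraries. The luteolin group was given luteolin with DMI, and the quercetin group quercetin with DMI. DMI stands for the inducing cocktail of 1 uM dexamethasone, 0.5 mM of the phosphodiesterase inhibitor IBMX and 10 ug/ml insulin. It was given until day 2 to cells past confluence, then replaced by insulin alone and later by serum medium. The DMI group had the cocktail with no added flavonoid, and the untreated group was labelled as preadipocytes without treatment. Luteolin and quercetin are plant flavonoids that share a ring skeleton, and quercetin carries an additional hydroxyl group on the central ring. Their doses and exposure times are not given in the labels, so the 2 compounds cannot be set against each other at doses known to match. The protocol text is the same for all samples, the untreated ones included, so membership of that group was taken from its title and treatment field. Nothing in the labels says that the libraries of a group came from separate cultures, and the p-values therefore measure only the spread between these libraries.

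Carbonic anhydrases hold a zinc ion between histidines and use it to turn carbon dioxide and water into bicarbonate and a proton, and back again. Cytosolic, mitochondrial, membrane-anchored and secreted forms exist, along with related proteins that have lost the activity. In fat cells, bicarbonate made in mitochondria and cytosol is the substrate of pyruvate carboxylase and acetyl-CoA carboxylase, which feed carbon into new fatty acids, and Car3 is known as an abundant protein of adipose tissue and muscle.

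The pair of histidine codons at the zinc site shows how these genes are related. Below are 39 coding bases of 8 of them, 5′ to 3′, read from the GENCODE M21 transcripts, with the histidine codons at the pair in capitals.
Car2: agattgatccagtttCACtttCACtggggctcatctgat
Car3: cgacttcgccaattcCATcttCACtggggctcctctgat
Car13: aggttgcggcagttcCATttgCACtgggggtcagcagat
Car5b: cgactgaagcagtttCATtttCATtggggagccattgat
Car4: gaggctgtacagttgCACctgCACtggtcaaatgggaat
Car9: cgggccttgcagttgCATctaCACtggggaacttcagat
Car12: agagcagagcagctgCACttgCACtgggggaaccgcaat
Car14: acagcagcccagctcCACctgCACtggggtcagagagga
Each window was placed by searching the protein for this site with a pattern that requires the second histidine, so that codon was fixed in advance. At the first place the pattern allowed histidine or arginine, and all 8 windows held histidine. Car8 was left out of the search, so nothing is shown for its site. Car2 and Car3 had the same base at 29 of the 39 positions, as did Car2 and Car13, and Car2 and Car4 at 18. Over whole coding sequences, the longest identical run between any pair of the Car genes was 30 bases, between Car13 and Car2, and Car3 and Car5b shared a run of 21 bases. The sources used here do not say how reads matching more than 1 place were counted.

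Car13, Car1, Car3 and Car2 lie side by side on chromosome 3, within 259 kb (chr3:14641727-14900770 on GRCm38). Car1 lies on the minus strand and the others on the plus strand. Car5b is on the X chromosome (chrX:163976822-164027997), Car9 and Car8 are on chromosome 4, Car4 on 11, Car12 on 9, and Car14 is elsewhere on chromosome 3 (chr3:95897768-95904691). Car9 overlaps an antisense gene (Gm12454) and Car14 overlaps Aph1a on the opposite strand. The library kit does not mark strand, so reads of these overlapping genes cannot be told apart.

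Library totals ran from 14522182 to 19436796 counts. The third library of each DMI-treated group stood apart. The 14 adipocyte marker genes, added up as CPM (counts scaled to the TMM-adjusted library total), came to 17118, 19561 and 8395 in the luteolin libraries, 10240, 9755 and 4787 in the quercetin libraries, 36418, 40347 and 11865 in the DMI libraries, and 895, 915 and 997 in the untreated libraries. Each of the 14 was counted over the libraries as a whole, but Retn and Slc2a4 had a lowest count of 0. Markers of macrophages, endothelium and blood summed to between 1.42 and 5.39 CPM in every library, with Adgre1 at 0 throughout. The highest sum was in the third luteolin library. Of 22 counts of the blood marker Hba-a1, 19 lay in 1 library, and all 13 counts of Hbb-bs lay in 1 library. The muscle markers Myod1, Myog and Ckm were at 0. Of these lists, Acp5 rose and Ctsk and Runx2 fell with DMI, and Csf1r and Cd68 did not pass. The share of counts on mitochondrial genes was 2.91% to 4.73% in luteolin, 3.29% to 4.65% in quercetin, 2.87% to 4.72% in DMI and 1.85% to 1.91% in untreated libraries. Calls of the 5 tested genes are therefore also given without the third libraries where they change, a setting chosen after seeing the data. For the gene lists such counts are given for some comparisons only, so lists without them may have changed too. In bulk RNA, fewer cells of a type and less RNA per cell cannot be told apart.

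DMI cells had far more Car3, Car2 and Car5b RNA than untreated cells, and a smaller excess of Car13. These 4 of the 5 tested genes rose with edgeR's quasi-likelihood test (Benjamini-Hochberg adjusted p below 0.05 over 14855 genes), while Car9 did not pass. Over all genes tested, 14.7% were called higher in this comparison. The median log2 fold change was 3.64 over the 5 genes, beside -0.04 over all genes. None of the 5 was below 0. Car3 and Car2 were near 0 in untreated cells, so they passed the low-count filter through the groups given DMI. Of the 4 other tested Car genes, 0 were called higher and 1 lower, with a median of -0.72. The lower one, Car6, passed the low-count filter through the untreated group. Among the genes tested, the rise thus lay with 4 of the listed ones and not with every Car gene. Car1, outside the list and too rare for this test, had 11, 7 and 4 counts in DMI libraries and 0 in each untreated library.

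Car3 encodes a cytosolic enzyme of low carbon dioxide activity, abundant in fat and muscle. It had 155, 183 and 22.1 CPM in the DMI libraries, against 0, 0 and 0.242 CPM in the untreated libraries, which is 4 counts in all. Every DMI library was far above every untreated one, although the third DMI library was much lower than its companions. The pooled counts, 5495 in DMI and 4 in untreated cells, give a depth-adjusted ratio of 1452 with a 95% interval of 567 to 5332 that covers counting error only. The fitted log2 fold change was 10.41 ± 1.34 (SE, n = 3 each, adjusted p = 0.000347, edgeR), and its size depends on the prior count because untreated cells were near 0. In the fitted table it ranked 14th from the highest of all genes tested. Since the 4 untreated counts all lie in the third untreated library, the fitted value was 13.96 without that library, against 9.87 and 9.85 without the first or second, and the call held in all 3 cases.

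Car2, the cytosolic enzyme of very high activity, followed the same order at a lower level. It had 33.0, 36.5 and 7.20 CPM in DMI libraries, against 0.559, 0.0596 and 0.483 CPM in untreated libraries. The groups did not overlap, and the log2 fold change was 6.10 ± 0.82 (SE, n = 3 each, adjusted p = 0.000457, edgeR). Both Car2 and Car3 were thus near 0 without the cocktail.

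Car5b encodes the mitochondrial enzyme of wide tissue distribution, and Car13 a cytosolic one. Unlike Car2 and Car3, both were already expressed in untreated cells. Car5b had 339, 390 and 104 CPM in DMI libraries, against 21.1, 19.6 and 26.0 CPM in untreated libraries, a log2 fold change of 3.64 ± 0.52 (SE, n = 3 each, adjusted p = 0.000634, edgeR). Car13 had 66.4, 70.6 and 39.6 CPM in DMI libraries, against 28.0, 27.9 and 30.2 CPM in untreated libraries, a log2 fold change of 1.04 ± 0.21 (SE, n = 3 each, adjusted p = 0.00463, edgeR). Neither gene's groups overlapped. The listed neighbours on chromosome 3 thus differed in the size of their change. Log2 fold changes were 1.04 for Car13, 6.10 for Car2 and 10.41 for Car3.

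**Figure D1:**
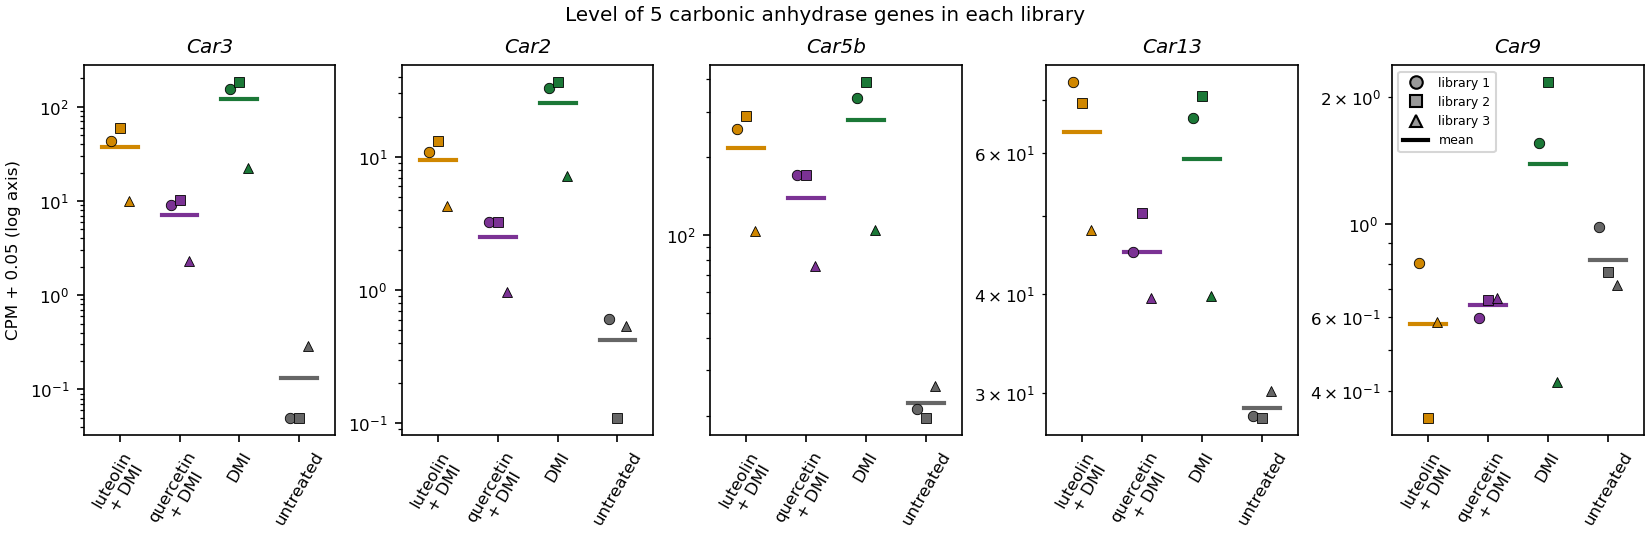
CPM of Car3, Car2, Car5b, Car13 and Car9 in each library, on log axes after adding 0.05, with groups along the x axis; symbols mark the library number and bars the group mean. The DMI libraries of Car3 lie at 155, 183 and 22.1 CPM and the quercetin libraries at 8.95, 10.1 and 2.27 CPM, and the third library is the lowest of its group in each DMI-treated group for the first 4 genes.

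Car9 encodes a membrane enzyme with its active site outside the cell, known as a target of the hypoxia-inducible factors. It was a rare transcript here, with 157 counts over the 12 libraries. It had 1.51, 2.12 and 0.369 CPM in DMI libraries, against 0.932, 0.716 and 0.665 CPM in untreated libraries. The third DMI library was the lowest of the 6 and the other 2 were the highest, so the groups overlapped. The log2 fold change of 0.78 ± 0.52 did not pass (SE, n = 3 each, adjusted p = 0.294, edgeR). Without the third DMI library it was 1.23 with an adjusted p of 0.0328, and without the third library of all 3 DMI-treated groups 1.27 with an adjusted p of 0.0222, a setting chosen after seeing the data.

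Car14 and Car12, which are also membrane enzymes facing outward, and Car4, which is tethered to the outer face by a lipid anchor, were at or near the limit of detection. Car14 had 62 counts in all, with 7, 10 and 5 in luteolin and 9, 5 and 1 in quercetin libraries. It had 5, 5 and 6 counts in DMI and 5, 2 and 2 in untreated libraries. As CPM, luteolin (0.333 to 0.590) and DMI (0.315 to 0.369) lay just above the highest untreated library (0.311). Quercetin, at 0.0614 to 0.491 CPM, overlapped all the other groups. These differences rest on few counts. Car12 had 24 counts in 8 libraries, at most 6 in any 1 library. Car4 had 2 counts, both in the third DMI library. Car8 had none among 199790000 counts, which allows up to 0.0150 CPM over all libraries at the 3 counts that a count of 0 permits. These 4 genes were not tested.

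Levels of different genes can be set side by side only per transcript length, as the authors' FPKM. In untreated cells Car13 was the most abundant of the 16 Car genes, at 11.9, 11.8 and 12.7 FPKM, and Car5b followed at 3.24, 2.99 and 3.98 FPKM. In the first 2 DMI libraries Car3 and Car5b were at about the same height, with Car3 at 54.1 and 63.8 FPKM and Car5b at 53.3 and 61.4 FPKM. In the third DMI library Car13 and Car5b, at 17.4 and 16.6 FPKM, were above Car3 at 7.79 FPKM. The order of the genes in DMI cells therefore depended on the library.

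Added up over the 16 genes, carbonic anhydrase RNA came to 82.9 ± 31.7 FPKM in luteolin, 47.96 ± 13.2 FPKM in quercetin, 126.5 ± 68.8 FPKM in DMI and 19.7 ± 1.22 FPKM in untreated cells (SD, n = 3 each). Car3 made up 14.3 ± 6.27% of that sum in luteolin, 4.75 ± 2.03% in quercetin, 29.1 ± 11.2% in DMI and 0.130 ± 0.225% in untreated cells (SD, n = 3 each). Car13 had the opposite pattern, with 35.5 ± 8.38% in luteolin, 42.1 ± 9.01% in quercetin, 24.1 ± 10.5% in DMI and 61.7 ± 1.24% in untreated cells (SD, n = 3 each). The sum was thus mostly Car5b and Car13 with quercetin, a mix of Car3, Car5b and Car13 with DMI, and mostly Car13 in untreated cells. Car5b was the steadiest share among DMI libraries, at 34.6 ± 0.200% (SD, n = 3). These shares were not tested.

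**Figure D2:**
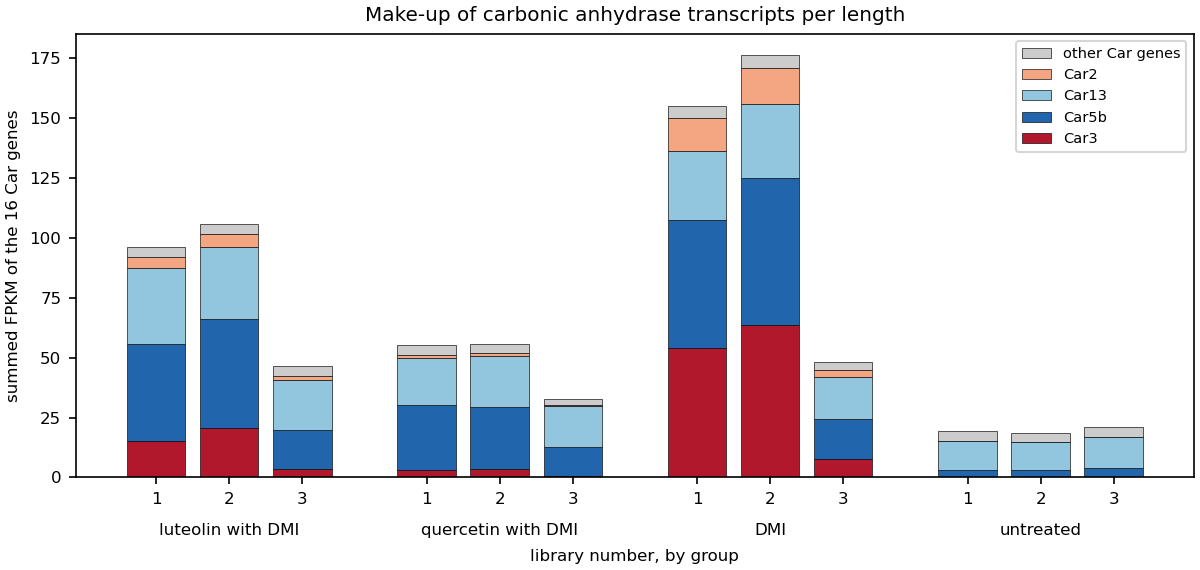
Summed FPKM of the 16 Car genes in each library, with the library number and group along the x axis and stacked bars for Car3, Car5b, Car13, Car2 and all other Car genes. The sums average 82.9 in luteolin, 47.96 in quercetin, 126.5 in DMI and 19.7 FPKM in untreated cells, and Car13 is the largest part of each untreated bar.

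Quercetin with DMI was set against DMI to ask how the compound moved these genes in cells under the same cocktail. Car3 and Car2 fell, and the other 3 tested genes did not pass. The 2 lower genes stand beside 0.848% of all genes called lower. All 5 fold changes were below 0, with a median of -1.16 on the log2 scale, beside a median near 0 over all genes. The 4 other tested Car genes had a median of -0.16, and none of them was called.

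Car3 had 8.95, 10.1 and 2.27 CPM in the quercetin libraries, against 155, 183 and 22.1 CPM in the DMI libraries. Every quercetin library was below every DMI library, and within the third libraries alone the values were 2.27 and 22.1 CPM. The log2 fold change was -4.06 ± 0.82 (SE, n = 3 each), with a 95% interval from -5.84 to -2.29 and an adjusted p of 0.0484 (edgeR).

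Car2 had 3.22, 3.18 and 0.920 CPM in the quercetin libraries, against 33.0, 36.5 and 7.20 CPM in the DMI libraries. Again no quercetin library reached the lowest DMI library. The log2 fold change was -3.37 ± 0.65 (SE, n = 3 each), with a 95% interval from -4.77 to -1.97 and an adjusted p of 0.0469 (edgeR).

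Both adjusted p-values lie just under the threshold, and the calls depended on single libraries. The adjusted p of Car2 and Car3 rose to 0.210 each without the first DMI library, and to 0.205 and 0.216 without the second. It was 0.161 each without the second quercetin library, 0.0860 and 0.0926 without the third, 0.0792 each without the first luteolin library, and 0.0664 and 0.0683 without the second. Leaving out untreated library 1, 2 or 3 gave 0.0773, 0.0777 and 0.0745 for Car2 and 0.0803, 0.0784 and 0.0771 for Car3. Over all 12 fits that leave out 1 library the log2 fold changes stayed between -3.81 and -2.97 for Car2 and between -4.55 and -3.63 for Car3, so the direction held while the call did not. The calls stood without the third luteolin library or the first quercetin library. Without the third DMI library the adjusted p fell to 0.00146 for Car2 and 0.00167 for Car3.

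Car5b had 171, 170 and 75.7 CPM in quercetin, against 339, 390 and 104 CPM in DMI libraries. Its groups overlapped only through the third DMI library, and the log2 fold change of -0.999 ± 0.467 did not pass (SE, n = 3 each, 95% interval -2.01 to 0.01, adjusted p = 0.241, edgeR). Car13 was closer still, with 45.1, 50.4 and 39.5 CPM in quercetin, against 66.4, 70.6 and 39.6 CPM in DMI libraries, and a log2 fold change of -0.39 ± 0.21 (SE, n = 3 each, adjusted p = 0.313, edgeR). Car9 had 0.546, 0.607 and 0.614 CPM in quercetin libraries, against 1.51, 2.12 and 0.369 CPM in DMI libraries, a log2 fold change of -1.16 ± 0.53 (SE, n = 3 each, adjusted p = 0.232, edgeR). Without the third DMI library these 3 passed as well, with adjusted p of 0.0271 for Car5b, 0.0321 for Car13 and 0.0197 for Car9 (edgeR). Without the third library of every DMI-treated group all 5 tested genes were lower with quercetin, where 16.4% of all genes were. The log2 fold changes were then -4.12 for Car3, -3.41 for Car2, -1.61 for Car9, -1.07 for Car5b and -0.49 for Car13.

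Luteolin with DMI had mean values between those of quercetin and DMI for Car3 and Car2, and no member passed the test against DMI. Over all genes, 0.0202% were called lower. With edgeR 0 of 5 passed, 3 of 5 had an unadjusted p below 0.05 (Car2, Car3 and Car9), and DESeq2 called 0. Over all genes, 904 of 14855 had such a p and DESeq2 called 48. No label pairs the luteolin and DMI libraries, but those of the same number deviated together (r = 0.26, 0.34 and 0.59). With the number as a block 0.141% of all genes were called lower, with again 0 of the 5, Car3 coming nearest at an adjusted p of 0.0710 (edgeR). The same block in a fit of only the 6 luteolin and DMI libraries called 2 of the 5 lower, Car3 (-1.58, adjusted p = 0.000155) and Car2 (-1.35, adjusted p = 0.00152), where 4.41% of all genes were called lower (edgeR). The call for these 2 genes therefore depended on whether and how the replicate number was fitted.

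Car3 had 43.5, 59.8 and 9.92 CPM in luteolin libraries, against 155, 183 and 22.1 CPM in DMI libraries. The first 2 luteolin libraries were above the third DMI library, and the log2 fold change was -1.67 ± 0.73 (SE, n = 3 each, 95% interval -3.25 to -0.08, adjusted p = 0.812, edgeR). Car2 had 10.9, 13.2 and 4.26 CPM in luteolin libraries, against 33.0, 36.5 and 7.20 CPM in DMI libraries, with a log2 fold change of -1.43 ± 0.58 (SE, n = 3 each, adjusted p = 0.762, edgeR). Library by library, each luteolin value of both genes was below the DMI value of the same number. Without the third libraries the fold changes of Car3 and Car2 hardly moved, at -1.68 and -1.505, but both passed with adjusted p of 3.7e-05 and 0.000285.

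Car5b had 256, 288 and 104 CPM in luteolin libraries, against 339, 390 and 104 CPM in DMI libraries, a log2 fold change of -0.36 ± 0.46 (SE, n = 3 each, adjusted p = 0.998, edgeR). Car13 had 73.6, 69.4 and 48.05 CPM in luteolin libraries, against 66.4, 70.6 and 39.6 CPM in DMI libraries, and its log2 fold change of 0.11 ± 0.21 was the only 1 of the 5 above 0 (SE, n = 3 each, adjusted p = 0.998, edgeR). The 95% interval of Car13 ran from -0.34 to 0.57. Car9 had 0.757, 0.295 and 0.532 CPM in luteolin libraries, against 1.51, 2.12 and 0.369 CPM in DMI libraries, a log2 fold change of -1.31 ± 0.54 (SE, n = 3 each, adjusted p = 0.790, edgeR). Without the third libraries 4 of the 5, all but Car13, were lower with luteolin, where 6.23% of all genes were, with adjusted p of 0.0389 for Car5b and 0.0412 for Car9 (edgeR).

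Between the compounds, Car3 and Car2 were higher in luteolin than in quercetin libraries on average, but no member passed, as no gene at all did (0% of 14855 genes). With edgeR 3 of the 5 had an unadjusted p below 0.05 (Car2, Car3 and Car13), and DESeq2 called 0. Over all genes, 1327 of 14855 had such a p. Car3 had 43.5, 59.8 and 9.92 CPM in luteolin, against 8.95, 10.1 and 2.27 CPM in quercetin libraries, a log2 difference of 2.40 ± 0.78 (SE, n = 3 each, 95% interval 0.71 to 4.08, adjusted p = 0.541, edgeR). For Car2 the 3 luteolin libraries, at 10.9, 13.2 and 4.26 CPM, all lay above the quercetin libraries at 3.22, 3.18 and 0.920 CPM, with a log2 difference of 1.94 ± 0.63 (SE, n = 3 each, 95% interval 0.56 to 3.31, adjusted p = 0.541, edgeR). Car13 and Car5b differed by 0.50 ± 0.21 and 0.64 ± 0.46 on the log2 scale (SE, n = 3 each), with adjusted p of 0.541 and 0.638 (edgeR), and Car9 by -0.15 ± 0.58 with an adjusted p of 0.936. The 95% intervals of Car5b (-0.37 to 1.64) and Car9 (-1.40 to 1.09) span 0, which does not show that the compounds act alike. Without the third libraries 4 of the 5 were higher with luteolin, where 6.95% of all genes were, at log2 differences of 2.43 for Car3, 1.90 for Car2, 0.67 for Car5b and 0.58 for Car13.

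**Figure D3:**
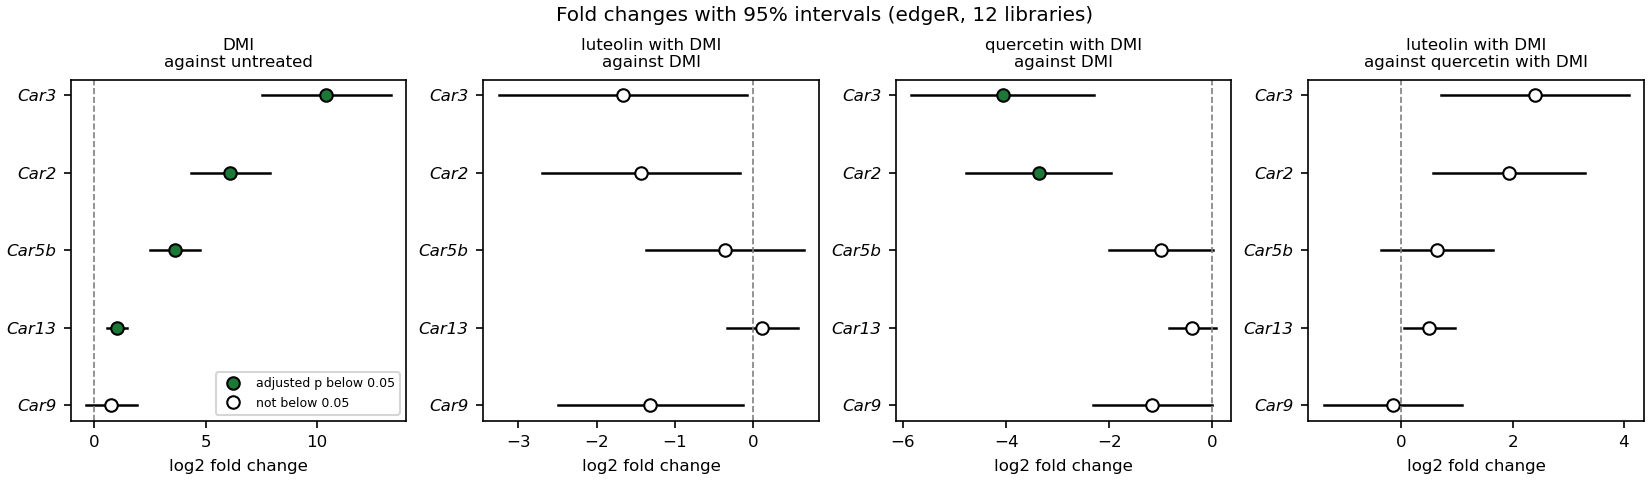
Log2 fold changes of the 5 tested genes with 95% intervals in the 4 comparisons, from edgeR over 12 libraries; filled points have an adjusted p below 0.05. Car3, Car2, Car5b and Car13 are filled for DMI against untreated, Car3 and Car2 for quercetin with DMI against DMI, and none in the other 2 panels.

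The order of the groups was the same for Car3 and Car2, highest in DMI, then luteolin, then quercetin, and lowest in untreated cells. Of the neighbours in that order, luteolin against DMI and quercetin against luteolin did not pass the test. In the authors' deposited table, quercetin with DMI still had more of both than untreated cells, with log2 fold changes of 6.48 for Car3 and 2.76 for Car2 and adjusted p of 0.000140 and 0.00171. The authors' deposited table likewise gave Car5b and Car13 higher than untreated with both compounds, at log2 fold changes of 3.32 and 1.19 for luteolin and of 2.66 and 0.67 for quercetin, with adjusted p of 0.00239 or less. For quercetin against DMI, the authors' deposited table listed adjusted p of 0.00282 for Car3 and 1.7e-07 for Car2.

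The adipocyte marker genes moved with these results. All 14 rose with DMI (edgeR), with a median log2 fold change of 9.42, and 3 of the 14 fell with quercetin against DMI (Scd1, Retn and Slc2a4), where the median was -1.70 and all 14 were below 0. Over all genes, 14.7% were called higher with DMI and 0.848% lower with quercetin. With luteolin none of the 14 passed with edgeR, 3 had an unadjusted p below 0.05, DESeq2 called 1, and the median was -0.74. Over all genes, 904 of 14855 had such a p with luteolin and DESeq2 called 48. Among the 8 preadipocyte markers, 6 fell with DMI, beside 12.4% of all genes called lower. None of the 8 was called with either compound against DMI. Without the third libraries, 5 of the 8 were higher with quercetin, and 3 were higher and 2 lower with luteolin. Of the 15106 genes tested in that setting, 5049 were called in either direction with quercetin and 1566 with luteolin. Leaving out the third libraries, 10 of the 14 adipocyte markers fell with luteolin and all 14 with quercetin. Over all genes, 6.23% then fell with luteolin and 16.4% with quercetin. Their part in the carbonic anhydrase results was not tested, so each gene is also given per 1000 CPM of the summed adipocyte markers. Scd1 and Lpl were the largest parts of that sum, averaging 10368.5 and 7209 CPM in DMI cells. Scd1 averaged 2949 CPM in luteolin and 1659 CPM in quercetin cells, and Lpl 5444 and 3138 CPM. The ratios therefore follow these 2 genes most, and other choices of marker were not tried.

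On that scale Car3 and Car2 were lowest with quercetin among the 3 groups given DMI. Car3 had 2.54, 3.06 and 1.18 CPM per 1000 marker CPM in luteolin, 0.874, 1.04 and 0.474 in quercetin, and 4.26, 4.53 and 1.86 in DMI libraries. No quercetin library reached the lowest luteolin or DMI library. Car2 had 0.636, 0.672 and 0.507 in luteolin, 0.314, 0.326 and 0.192 in quercetin, and 0.905, 0.905 and 0.607 in DMI libraries on the same scale, again with quercetin below both. Untreated cells had 0, 0 and 0.242 for Car3 and 0.625, 0.0652 and 0.485 for Car2, over a marker sum below 1000 CPM.

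Car5b and Car13 lay the other way round relative to the markers, and were highest in untreated cells, where the marker sum was smallest. Car5b had 14.98, 14.7 and 12.4 CPM per 1000 marker CPM in luteolin, 16.7, 17.5 and 15.8 in quercetin, and 9.32, 9.68 and 8.81 in DMI libraries. On this scale, which Scd1 and Lpl weigh on most, each flavonoid group lay wholly above the DMI group. Car13 had 4.30, 3.55 and 5.72 in luteolin, 4.41, 5.17 and 8.26 in quercetin, and 1.82, 1.75 and 3.34 in DMI libraries, likewise without overlap with DMI. Untreated libraries had 23.6, 21.4 and 26.1 for Car5b and 31.3, 30.5 and 30.2 for Car13, above every library given DMI. These ratios were given as values and were not tested.

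**Figure D4:**
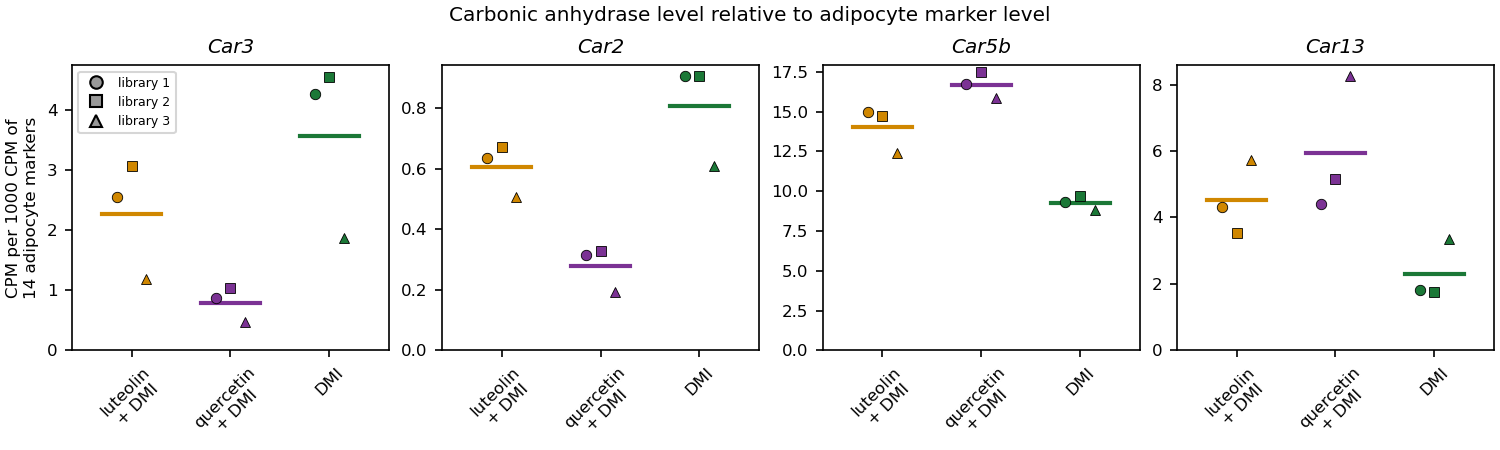
CPM of Car3, Car2, Car5b and Car13 per 1000 CPM of the 14 summed adipocyte markers in each DMI-treated library, with groups along the x axis; symbols mark the library number and bars the group mean. Car3 and Car2 are lowest in quercetin, at 0.474 to 1.04 and 0.192 to 0.326, while Car5b is lowest in DMI, at 8.81 to 9.68.

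The remaining Car genes were low in all groups. Car6, the secreted enzyme of saliva, had 0, 0 and 2 counts in DMI libraries, against 14, 15 and 17 counts in untreated libraries. It was called lower with DMI, with a log2 fold change of -4.23 ± 0.99 (SE, n = 3 each, adjusted p = 0.00878, edgeR). Its counts were low in every library given DMI, so it passed the low-count filter through the untreated group, where it is high. Car1, the neighbour of Car3 and a major red cell enzyme, had 11, 7 and 4 counts in DMI libraries, against 0 in each untreated library. It was too rare for a test here, while the authors' deposited table gave it a log2 fold change of 5.45 with an adjusted p of 0.00299. Car7, Car11 and Car15 did not pass in any of the 4 comparisons, but without the third libraries Car11 was higher and Car15 lower with DMI. Car5a had 4 counts in all and Car10 none.

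The carboxylases that use bicarbonate rose with DMI in 7 of 8 tested genes, beside 14.7% of all genes. Pyruvate carboxylase (Pcx) averaged 1973 CPM in DMI and 51.5 CPM in untreated cells, a log2 fold change of 5.26 ± 0.64 (SE, n = 3 each, adjusted p = 0.000266, edgeR). Mccc1, Pcca and Mccc2, which encode subunits of methylcrotonyl-CoA and propionyl-CoA carboxylase, followed at 2.11, 1.43 and 1.31, and Cad, which starts pyrimidine synthesis, had -0.28 and did not pass (adjusted p = 0.133, edgeR). With quercetin against DMI 1 of the 8 fell, the acetyl-CoA carboxylase gene Acaca, which averaged 139 CPM in quercetin and 282 CPM in DMI cells, with a log2 fold change of -1.02 ± 0.21 (SE, n = 3 each, adjusted p = 0.0484, edgeR). All 8 fold changes were below 0 for quercetin, with a median of -0.91, DESeq2 called 3 and 7 had an unadjusted p below 0.05. Over all genes, DESeq2 called 1002, and 3159 of 14855 had an unadjusted p below 0.05. The 1 edgeR call stands beside 0.848% of all genes called lower. With luteolin none passed with edgeR or DESeq2, and 2 had an unadjusted p below 0.05, beside 904 of 14855 over all genes. Without the third libraries 7 of the 8, all but Cad, fell with each compound, where 16.4% of all genes fell with quercetin and 6.23% with luteolin, and Cad was also called lower with DMI.

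Among transporters of bicarbonate, protons and lactate, calls went both ways. Of 9 tested bicarbonate and anion exchangers, 2 rose with DMI, Slc4a4 (1.48) and Slc4a7 (0.53), both sodium bicarbonate cotransporters, and 2 fell, Slc4a8 (-1.54) and Slc26a11 (-0.51), on the log2 scale, beside 14.7% of all genes called higher and 12.4% lower. None of the 9 passed against DMI with quercetin or luteolin by edgeR or DESeq2, where 3 and 1 had an unadjusted p below 0.05. Over all 14855 genes, 3159 and 904 had such a p. Of 11 proton and lactate transporters, only the sodium proton exchanger gene Slc9a9 passed, lower with DMI at -1.29 (adjusted p = 0.00204, edgeR). With quercetin against DMI it was higher at 1.06 ± 0.23 (SE, n = 3 each), where 0.162% of all genes were called higher. That call lay just under the threshold (adjusted p = 0.0496, edgeR). Slc9a9 averaged 11.1 CPM in quercetin, 5.28 CPM in DMI and 12.96 CPM in untreated cells. Bsg, the partner of the lactate carriers, and Slc16a1, such a carrier, were the most abundant named genes that did not pass with DMI, at 0.17 and 0.30. With the third libraries left out, 5 of the 9 exchangers were higher with DMI and 3 lower, and 2 of the 11 proton and lactate transporters higher and 3 lower, where 27.5% of all genes were higher and 25.2% lower. Against DMI, 1 exchanger was then higher and 4 lower with quercetin, 2 of the 11 were higher with quercetin, and 1 of the 11 (Slc9a8) with luteolin. Over the 15106 genes tested in that setting, 16.4% were lower with quercetin and 6.23% with luteolin. Calls in either direction numbered 5049 with quercetin and 1566 with luteolin.

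Car9 was read beside 13 other targets of the hypoxia-inducible factors. With DMI, 6 of the 13 rose and 2 fell, beside 14.7% and 12.4% of all genes, among the risen ones Egln3 at 2.29, Ldha at 1.497 and Vegfa at 0.94 on the log2 scale (edgeR). With quercetin against DMI, 1 of the 13 fell, Egln3, an oxygen-sensing prolyl hydroxylase, which averaged 20.8 CPM in quercetin and 58.3 CPM in DMI cells (log2 -1.49 ± 0.27, SE, n = 3 each, adjusted p = 0.0420, edgeR). That call stands beside 0.848% of all genes called lower. For quercetin 7 of the 13 had an unadjusted p below 0.05 and DESeq2 called 6. Over all genes, 3159 of 14855 had such a p and DESeq2 called 1002. With luteolin none passed with edgeR or DESeq2, and 6 had an unadjusted p below 0.05, beside 904 of 14855 over all genes. When the third libraries were left out, 7 of the 13 rose and 3 fell with DMI, beside 27.5% and 25.2% of all genes. In that setting 6 of the 13 fell with each compound and 2 rose with quercetin. Over the 15106 genes tested in that setting, 16.4% fell with quercetin and 6.23% with luteolin. With quercetin, 5049 of them were called in either direction. Slc2a1, the glucose carrier gene of this list, had a log2 fold change of 0.01 with DMI and did not pass.

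The promoters of Car9 and Car5b are shown because Car9 is the known hypoxia target and Car5b the most abundant of the induced genes by counts. RefSeq promoter entries on GRCm38.p6 matched 5 of the 9 genes (Car4, Car5b, Car9, Car12 and Car14). Each sequence runs over 300 bases across the start, 5′ to 3′, with matches on either strand to the hypoxia core ACGTG, the box known as CCAAT and the box known as GGGCGG in capitals.
Car9 (chr4:43506776-43507075, plus strand): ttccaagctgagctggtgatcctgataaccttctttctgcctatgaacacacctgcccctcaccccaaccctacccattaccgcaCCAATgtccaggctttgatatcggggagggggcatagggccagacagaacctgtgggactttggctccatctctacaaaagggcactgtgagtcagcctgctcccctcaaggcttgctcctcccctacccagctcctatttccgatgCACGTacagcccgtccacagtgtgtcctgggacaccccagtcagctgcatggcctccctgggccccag
Car5b (chrX:164027961-164028260, minus strand): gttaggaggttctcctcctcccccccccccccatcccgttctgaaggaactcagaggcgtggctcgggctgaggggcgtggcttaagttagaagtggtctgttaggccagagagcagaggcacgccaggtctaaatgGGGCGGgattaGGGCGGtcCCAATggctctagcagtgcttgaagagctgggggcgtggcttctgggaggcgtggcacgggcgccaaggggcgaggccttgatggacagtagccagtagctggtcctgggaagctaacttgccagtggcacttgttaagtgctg
Car9 held 1 match to ACGTG, the core of the hypoxia response element, at -18 from the start, and 1 CCAAT box at -165. Car5b held 1 CCAAT box and 2 GGGCGG boxes and no ACGTG. Of 32851 promoters of that length, 19.6% held ACGTG, 37.4% CCAAT and 35.7% GGGCGG, so such matches are common. No match to TTGCNNAA, held by 10.8% of promoters, lay in either window, which says only that these letters are absent there.

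Across the 12 libraries, the log2 CPM of Car2, Car3, Car5b and Car13 correlated with each other at Pearson r of 0.91 to 0.98, while Car9 correlated with them at 0.18 to 0.28. The points share the 4 groups, so these are descriptions of the group pattern, with no test. The 3 genes most like each member among 14854 others were Clstn3, Itga6 and Tmcc3 for Car3 (r = 0.99 each), Dusp4, Plcb2 and Cmbl for Car2 (0.99 each), and Cav1, Nabp1 and Poln for Car5b (0.99 each). For Car13 they were Glud1, Slc35a4 and Ppp2r1b (0.98 each). For Car9 they were Gm43314, Med16 and Sdccag3, at a lower 0.88, 0.84 and 0.84.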

How the data were processed

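The authors deposited 1 table with raw counts per gene, FPKM and their own comparisons (log2 fold changes and p-values, their tool not named in what was used here). Per the submitters' processing notes, CASAVA 1.8.2 and featureCounts 1.5.0-p3 were used. The sources used here give neither aligner nor strand setting. The build listed is mm9, but 98.3% of gene positions equal GENCODE M21, so coordinates are GRCm38. The deposited FPKM were used only to set genes side by side.

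Counts were tested with edgeR 4.0.16 (R 4.3.3): filterByExpr (14855 genes), TMM, 1 term per group over all 12 libraries, quasi-likelihood F test, and Benjamini-Hochberg adjustment within each comparison at 0.05. Standard errors are the log2 fold change divided by the root of F. DESeq2 1.42.0 was an alternative. The fit was tested on simulated data. Library totals of 14522182 to 19436796 counts set the precision, and 3 counts were the floor, covering counting error only.

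Same-numbered luteolin and DMI libraries deviated together (r = 0.26, 0.34 and 0.59), so fits with the number as a block are given beside the unpaired one there; this comes from the data, not the labels. The members, gene lists and naming rule (all members, the other Car genes, up to 4 called and 2 abundant genes per list, and the 3 genes most like each member) were chosen with earlier results of these data known.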

Additional observations from a re-analysis of the deposited data

How the results depend on the processing

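For DMI against untreated, the count of members called was 4 in 18 of 20 alternatives and 5 in the others, and leaving out 1 library gave 4 to 5. For quercetin with DMI against DMI the count of 2 became 0 with a filter of at least 1 CPM in 3 libraries, 0 in a fit of only the 6 libraries compared and 5 without the third library of each DMI-treated group, which was chosen after seeing the data. Leaving out 1 library gave 0 to 5, with 0 in 9 of the 12. For luteolin with DMI against DMI the count of 0 became 2 without the low-count filter, 2 with a replicate block in only the 6 libraries, and 4 without the third libraries, while leaving out 1 library gave 0 to 0. For luteolin against quercetin the count of 0 became 2 without the filter, 1 with the replicate block over 12 libraries (Car3, adjusted p = 0.0310), 2 with the block in only 6 libraries and 4 without the third libraries, with 0 to 0 on leaving out 1. The cause was not tested. Of 394 values of single genes, 345 kept their side of the threshold, 3 of them with a change of sign but no call, 22 no longer passed, 27 newly passed and 0 turned round with a call. Over all genes, calls ran from 1865 to 7970 for DMI, 0 to 5049 for quercetin, 0 to 1566 for luteolin and 0 to 2081 between the compounds. Same-numbered libraries did not all correlate above 0.1 outside the luteolin comparison, so the block there joins libraries that share only a number. Car12, Car14 and Car4 remained without a test at this depth.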
